A study of Mus musculus with 8 samples.

Results

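The IL-1 family genes described here are 9 genes of 56884 in the count table, taken by symbol: the ligand genes Il1a, Il1b, Il18, Il33 and Il36a, the antagonist gene Il1rn, and the receptor genes Il1r1, Il1rap and Il1rl1. Their transcripts were counted in RNA libraries of cultured Lacun3 cells, a murine line of lung adenocarcinoma. The STK11 WT group is the parental line and the STK11 KO group is a line in which Stk11 was disrupted by CRISPR; Stk11 encodes the tumour suppressor kinase LKB1, an activator of AMPK. Each group had 4 libraries, labelled as biological replicates of untreated cells in the same medium with 10% serum, collected during logarithmic growth. Whether the edited cells are 1 clone or a pool is unknown (not given in the sources used here), so each difference below is one between these cells. The design text asks for transcript changes that accompany Stk11 loss in the tumour cells alone, away from their surroundings in a tumour.

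IL-1 family cytokines carry alarm signals at epithelial surfaces. Most are made as cytosolic precursors without a classical secretion signal. IL-1 alpha, IL-33 and the IL-36 cytokines are held in epithelial cells and act when released by damaged or stressed cells, whereas IL-1 beta and IL-18 are processed to their active forms by caspase-1 in inflammasomes. Each agonist binds its own receptor chain, IL1R1 for IL-1 alpha and beta, ST2 (Il1rl1) for IL-33 and IL1RL2 for IL-36, and these recruit the shared accessory chain IL1RAP (Il1rap), after which MyD88 and IRAK kinases activate NF-kB. The IL-1 receptor antagonist (Il1rn) occupies IL1R1 without recruiting the accessory chain. In lung, IL-33 is best known from epithelial cells that alert ST2-bearing lymphoid and mast cells.

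Upstream sequences of Il33, Il1a and Il1rn are shown because the first pair rose and the antagonist fell in the same cells. Each runs over the 250 bases before a RefSeq start site (GRCm38.p6), 5′ to 3′ on the gene's strand, and capitals mark matches to the AP-1 motif. Il33 has 2 start sites in the RefSeq table, and Il1rn has 3, of which the most upstream is shown; the counts cover whole genes and do not say which start site was used.
Il33 upstream start, chr19:29924863-29925112, plus strand: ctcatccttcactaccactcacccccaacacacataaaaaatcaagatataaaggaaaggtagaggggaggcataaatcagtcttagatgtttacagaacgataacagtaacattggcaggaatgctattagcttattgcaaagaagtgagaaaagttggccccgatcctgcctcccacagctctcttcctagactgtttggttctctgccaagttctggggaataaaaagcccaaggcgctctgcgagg
Il33 downstream start, chr19:29945540-29945789, plus strand: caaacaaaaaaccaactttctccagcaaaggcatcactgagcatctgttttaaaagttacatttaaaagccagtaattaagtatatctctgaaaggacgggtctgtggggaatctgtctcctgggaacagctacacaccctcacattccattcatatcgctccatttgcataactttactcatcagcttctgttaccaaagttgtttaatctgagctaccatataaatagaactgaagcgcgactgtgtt
Il1a, chr2:129309973-129310222, minus strand: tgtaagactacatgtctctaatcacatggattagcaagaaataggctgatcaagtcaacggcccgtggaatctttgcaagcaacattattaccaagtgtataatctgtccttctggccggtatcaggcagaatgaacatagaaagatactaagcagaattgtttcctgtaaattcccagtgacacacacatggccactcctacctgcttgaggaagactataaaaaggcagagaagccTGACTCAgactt
Il1rn upstream start, chr2:24336610-24336859, plus strand: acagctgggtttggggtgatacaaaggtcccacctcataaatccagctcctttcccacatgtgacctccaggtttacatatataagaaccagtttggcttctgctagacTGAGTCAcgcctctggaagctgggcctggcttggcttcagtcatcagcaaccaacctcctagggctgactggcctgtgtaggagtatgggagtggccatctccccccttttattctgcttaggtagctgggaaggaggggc
The 250 bases before and 50 bases after each start site were searched on both strands for the NF-kB consensus, AP-1 (TGANTCA), the CREB half-site TGACG and the full CREB site TGACGTCA, which contains the half-site. Il1a held the AP-1 match TGACTCA from 12 to 6 bases before its start site, and Il1rn held TGAGTCA from 141 to 135 bases before the start shown. Il1r1, which did not pass, held a CREB half-site in the window of one start site and an NF-kB match in that of the other, and Il1rl1 held a CREB half-site in the window of one of its start sites. No motif searched was found in either Il33 window, in the other Il1rn windows, or in those of Il1b, Il18 and Il1rap. Of 32851 promoter windows of this length in the table, 8.46% held the NF-kB consensus, 7.81% AP-1, 20.8% the CREB half-site and 1.79% the full CREB site. Windows were found for 8 of the 9 genes, all but Il36a. A match describes the letters of a window, and factor binding was not measured.

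Levels are given in CPM, counts divided by the library's total after TMM scaling, the edgeR method that corrects for composition. Library totals were 18837263 to 21101904 counts in STK11 WT and 21441601 to 25715008 in STK11 KO (exact permutation test, two-sided p = 0.0286, the smallest that 4 against 4 libraries allow), and a single count equalled 0.0388 to 0.0515 CPM. The part of this difference in depth in the results was not tested. Stk11 (ENSMUSG00000003068.18; chromosome 10, 79951637 to 79966516 in GRCm39) stood at 66.2 ± 1.79 CPM (SD, n = 4) in STK11 WT and at 34.7 ± 0.852 CPM in STK11 KO, and fell by 0.93 ± 0.06 (SE) on the log2 scale (edgeR quasi-likelihood test, adjusted p = 1.12e-12). These counts cover the whole gene and do not show the edited site. KO replicate 3 stood apart: its counts differed from the other KO libraries by a chi-square per degree of freedom of 13 to 18.9, against 4.52 to 8.90 among those 3 and 3.12 to 6.93 within STK11 WT. Over 12 epithelial markers (10 counted), summed levels were 9300 to 9790 CPM in STK11 WT and 8000 to 8950 CPM in STK11 KO. Most of this came from Krt8, Krt18 and Krt19, with group means from 1650 to 3480 CPM; Krt7 averaged 1180 CPM in STK11 WT and 317 CPM in STK11 KO, and Cldn4 had 37 and 5 counts. Cldn7 and the lung lineage gene Sftpc had no count, and the lung lineage genes Nkx2-1 and Sftpb had 1 count each. Many markers of other cell types were at or near 0: Ptprc had 1 count, and Adgre1, Fcgr1, Tyrobp, Csf3r, Mpo, Kit, Fcer1a, Cd3d, Cd4, Col1a2, Lum, Thy1, Kdr, Emcn and Cldn5 had none. Other markers of these cell types were counted, among them Ly6g (624 counts in STK11 WT and 296 in STK11 KO), Cxcr2 (22 and 99) and Tpsab1 (8 and 126). Cdh5 had 114 and 366 counts, Vwf 130 and 11, and Col1a1 310 and 206. Mean levels in STK11 WT and in STK11 KO were 289 and 595 CPM for Mrc1, 48.9 and 19.1 CPM for Cd68 and 33.5 and 29.2 CPM for Cd14. Summed levels in STK11 WT and in STK11 KO were 360 to 389 and 625 to 662 CPM over 10 macrophage markers, mostly from Mrc1, Cd68 and Cd14, with 7 of the 10 counted at all. They were 9.21 to 11.7 and 7.64 to 8.70 CPM over 8 neutrophil markers (5 counted), and 30.1 to 33.0 and 11.6 to 18.7 CPM over 8 mast cell and basophil markers (3 counted, mostly Mcpt8). For 9 T cell and innate lymphoid markers (5 counted) they were 2.42 to 2.66 and 2.13 to 2.95 CPM, for 8 fibroblast markers (5 counted) 3.91 to 5.71 and 2.02 to 3.07 CPM, and for 7 endothelial markers (4 counted) 1.92 to 3.66 and 3.53 to 5.00 CPM. In a bulk sample, fewer cells that carry a transcript and less of it per cell cannot be told apart.

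The knockout line carried more transcript of the alarm cytokines Il33, Il36a and Il1a, less of the antagonist Il1rn and of Il18, and slightly less of the receptor chain Il1rap. Of the 9 genes, 7 had enough counts to be tested, 3 rose (Il33, Il36a and Il1a), 3 fell (Il1rn, Il18 and Il1rap) and 1 did not pass (Il1r1), where "rose" and "fell" mean an adjusted p under 0.05 in edgeR's quasi-likelihood test. Among all 13707 tested genes 67.9% passed, 34.4% upward and 33.5% downward, so a change as such was common in these lines. A change of at least 2-fold was seen in 4 of the 7, Il36a, Il33, Il1rn and Il18, against 16.4% of all tested genes. Il1a lay just under this limit, at a log2 fold change of 1.00 after rounding and of 0.88 to 1.15 with 1 library left out. Il36a passed the count filter only through STK11 KO and Il18 only through STK11 WT, so these genes had to differ to be tested and their counts are descriptions. The 9 genes were also chosen with earlier results of these data known, so their shares beside those of all tested genes are not a test. The KO and WT values did not overlap in 6 of the 7 tested genes, all but Il1r1, against 60.6% of all tested genes. Without KO replicate 3 the same 6 genes passed, with log2 fold changes of 2.80 for Il33, 5.72 for Il36a, 1.15 for Il1a, -2.95 for Il1rn, -2.48 for Il18 and -0.34 for Il1rap. Il1b and Il1rl1 had too few counts to be tested.

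**Figure D1:**
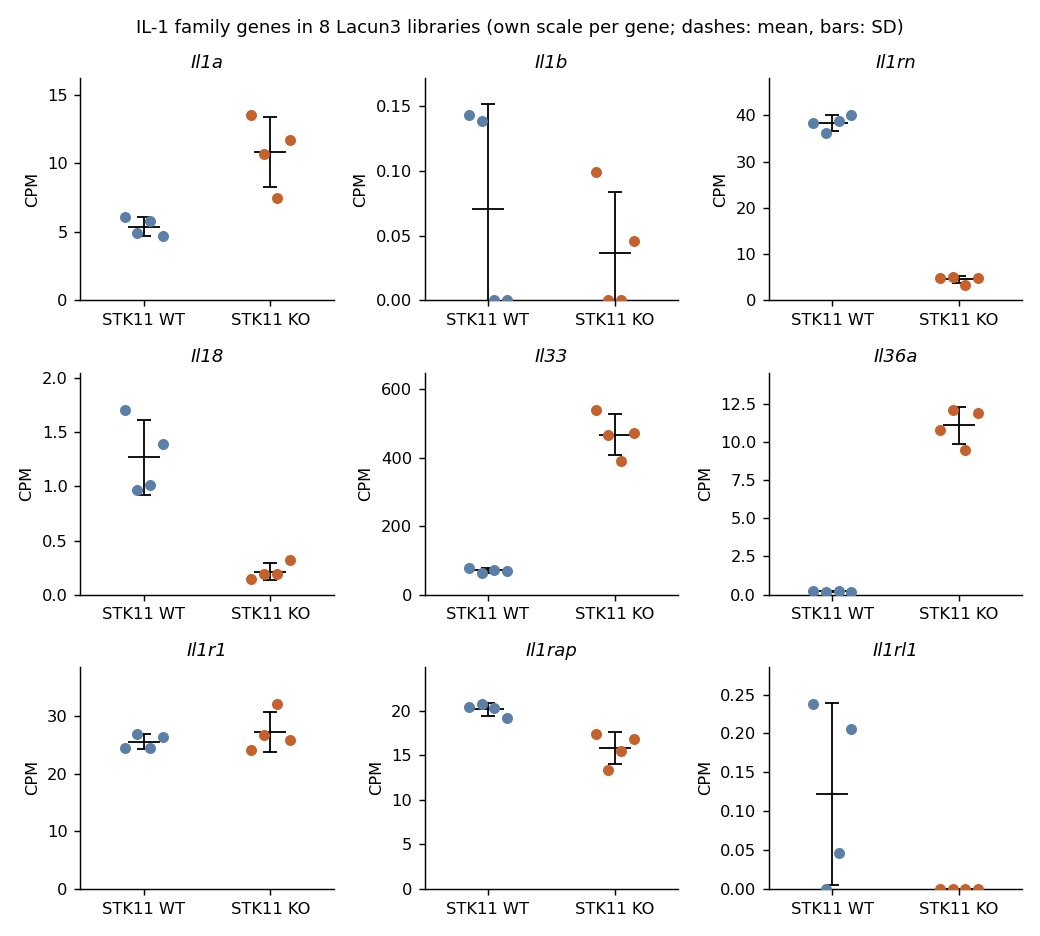
CPM of the 9 IL-1 family genes in each library, with STK11 WT in blue and STK11 KO in orange; dashes are means of 4 libraries, bars are SD (drawn down to 0 at most), and each panel has its own scale from 0. Il33, Il36a and Il1a lie higher and Il1rn, Il18 and Il1rap lower in every KO library, whereas the groups overlap for Il1r1, Il1b and Il1rl1.

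Il33 was the most abundant of the 9 genes per length in both lines and rose further in the knockout. It encodes a nuclear alarm cytokine (ENSMUSG00000024810.17; plus strand of chromosome 19, 29902514 to 29938118, GRCm39, the build of all positions from here on). Its levels in the 4 STK11 WT libraries were 78.8, 63.9, 71.5 and 69.7 CPM, and in the 4 STK11 KO libraries 541, 466, 392 and 473 CPM. Every KO library was above every WT library by a wide margin, and the lowest KO value was that of replicate 3. The mean went from 71.0 ± 6.12 to 468 ± 60.9 CPM (SD, n = 4), a 6.60-fold rise (log2 fold change 2.72 ± 0.09, SE; edgeR adjusted p = 7.28e-15). Ranked by log2 fold change, this was the 170th largest increase among the 13707 tested genes.

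Il36a, the gene for the epithelial cytokine IL-36 alpha, went from barely detected to clearly present. Its position is chromosome 2, 24105430 to 24115714, plus strand (ENSMUSG00000026984.5). The STK11 WT libraries held 5, 4, 5 and 4 counts and the STK11 KO libraries 219, 257, 244 and 257 counts. All 4 KO libraries were alike, with levels of 10.8, 12.1, 9.47 and 11.9 CPM, against 0.238, 0.185, 0.229 and 0.206 CPM in STK11 WT. The fitted rise was 50.2-fold (log2 fold change 5.65 ± 0.21, SE; edgeR adjusted p = 8.13e-17), the 39th largest increase of all tested genes. Its neighbour Il36g, which encodes another IL-36 agonist, rose with it from 0.141 ± 0.112 to 3.61 ± 0.613 CPM (SD, n = 4), or 24.3-fold (log2 fold change 4.60 ± 0.33, SE; edgeR adjusted p = 2.25e-11), and it too passed the filter only through STK11 KO. Il36rn, the gene of the IL-36 receptor antagonist, had 0 counts in all STK11 WT libraries and 7, 7, 7 and 14 counts in the STK11 KO libraries, at least 11-fold more against a floor of 3 counts over the WT group. It had too few counts for the main test. Without a filter on low counts its adjusted p was 1.88e-07 (edgeR quasi-likelihood test), and 2.4e-05 in DESeq2 and 1.74e-05 in limma on the deposited values. With all its counts in STK11 KO, Il36rn entered these settings through that group alone, so these values are descriptions. Il36b had 2 counts in all, both in KO replicate 3, and Il1f10, the IL-38 gene, had none.

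Il1a, which encodes the agonist IL-1 alpha, rose by a smaller step. Its position is chromosome 2, 129141530 to 129151892, minus strand (ENSMUSG00000027399.2). Levels were 6.09, 4.95, 5.82 and 4.68 CPM in STK11 WT and 13.5, 10.7, 7.45 and 11.7 CPM in STK11 KO. The groups did not overlap, and KO replicate 3 came nearest to the WT libraries. The log2 fold change was 1.00 ± 0.15 (SE; edgeR adjusted p = 4.93e-06). Il1b, the gene of the inflammasome-processed agonist IL-1 beta (ENSMUSG00000027398.14; chromosome 2, 129206490 to 129213059, minus strand), was almost silent, with 3, 3, 0 and 0 counts in STK11 WT and 2, 0, 0 and 1 in STK11 KO. The ratio of WT to KO counts per scaled library size was 2.12 with an exact (Clopper-Pearson) 95% counting interval of 0.452 to 13.1, so no difference in Il1b was detectable at this depth.

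Il18, whose cytokine is cut by caspase-1 and acts on lymphocytes, fell from a low level. Its position is chromosome 9, 50466127 to 50493140, plus strand (ENSMUSG00000039217.14). The STK11 WT libraries held 36, 21, 22 and 27 counts and the STK11 KO libraries 3, 4, 5 and 7. The WT libraries were all above the KO libraries, at 1.27 ± 0.350 against 0.214 ± 0.0763 CPM (SD, n = 4). Il18 was 5.79-fold lower in STK11 KO (log2 fold change -2.53 ± 0.36, SE, edgeR adjusted p = 1.28e-06). It passed the filter only through STK11 WT and so had to differ to be tested.

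Il1rn, the antagonist gene, had the largest fitted fall among the 7 genes tested. Its position is chromosome 2, 24226865 to 24241506, plus strand (ENSMUSG00000026981.16), and it gives secreted and intracellular forms that gene counts do not separate. Levels were 38.4, 36.1, 38.9 and 40.0 CPM in STK11 WT and 4.95, 5.08, 3.41 and 4.86 CPM in STK11 KO. The WT libraries were tightly grouped far above the KO libraries, among which replicate 3 was lowest. Il1rn was 8.44-fold lower in STK11 KO (log2 fold change -3.08 ± 0.10, SE; edgeR adjusted p = 1.15e-17), the 177th largest decrease among tested genes. Set against the summed counts of the agonist genes Il1a and Il1b in the same library, Il1rn counts gave a ratio of 6.16, 7.09, 6.69 and 8.54 in STK11 WT and of 0.364, 0.474, 0.458 and 0.413 in STK11 KO. On the log2 scale this ratio was 2.82 ± 0.20 in STK11 WT and -1.23 ± 0.17 in STK11 KO (SD, n = 4), a 16.6-fold difference. The ratio is of counts that are not corrected for gene length, so only its difference between libraries is read; it combines genes already described and was given no test.

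**Figure D2:**
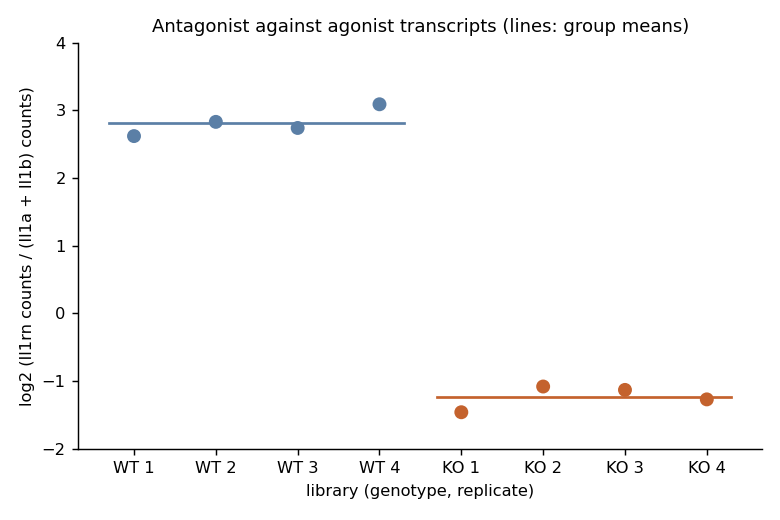
Log2 ratio of Il1rn counts to the summed counts of Il1a and Il1b in each of the 8 libraries, STK11 WT in blue and STK11 KO in orange, with lines at the group means of 2.82 and -1.23. The 4 values of each genotype lie close together and the groups do not overlap.

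Of the receptor chains for IL-1, Il1r1 did not pass and Il1rap fell slightly. Il1r1, the signalling receptor of IL-1 alpha and beta (ENSMUSG00000026072.13; chromosome 1, 40264240 to 40356417, plus strand), stood at 24.4, 26.9, 24.4 and 26.3 CPM in STK11 WT and at 24.1, 26.7, 32.1 and 25.8 CPM in STK11 KO. The groups overlapped, and the highest of the 8 values was KO replicate 3. Its log2 fold change of 0.10 ± 0.08 (SE) did not pass (edgeR adjusted p = 0.315), and without KO replicate 3 it was 0.00. Il1rap, the accessory chain shared by IL-1, IL-33 and IL-36 receptors (ENSMUSG00000022514.15; chromosome 16, 26400454 to 26548867, plus strand), stood at 20.4, 20.8, 20.3 and 19.2 CPM in STK11 WT and 17.4, 13.4, 15.5 and 16.9 CPM in STK11 KO. All KO values were below all WT values, by a small margin, and Il1rap was 1.28-fold lower (log2 fold change -0.36 ± 0.09, SE; edgeR adjusted p = 0.000936). The gene gives membrane-bound and soluble forms that gene counts do not separate.

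The receptor chains specific to the cytokines that rose most were nearly absent. Il1rl1, the gene of the IL-33 receptor ST2 and of its soluble form (ENSMUSG00000026069.16; chromosome 1, 40468730 to 40504575, plus strand), had 5, 0, 1 and 4 counts in STK11 WT and none in the 4 STK11 KO libraries. That is at least 3.53-fold less against a floor of 3 counts over the KO group, which corresponds to 0.0338 CPM. This bound takes the STK11 WT counts as they are and leaves out their counting error. WT replicate 2 was also at 0, so the groups overlapped. Without a filter on low counts Il1rl1 passed by edgeR's test (adjusted p = 0.0087) and not by DESeq2 (adjusted p = 0.0514). Il1rl2, which encodes the IL-36 receptor chain, had 3 counts over STK11 WT and 0 over STK11 KO, both at or under the floor. Il1r2, the decoy receptor of IL-1, had 1 and 2 counts.

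**Figure D3:**
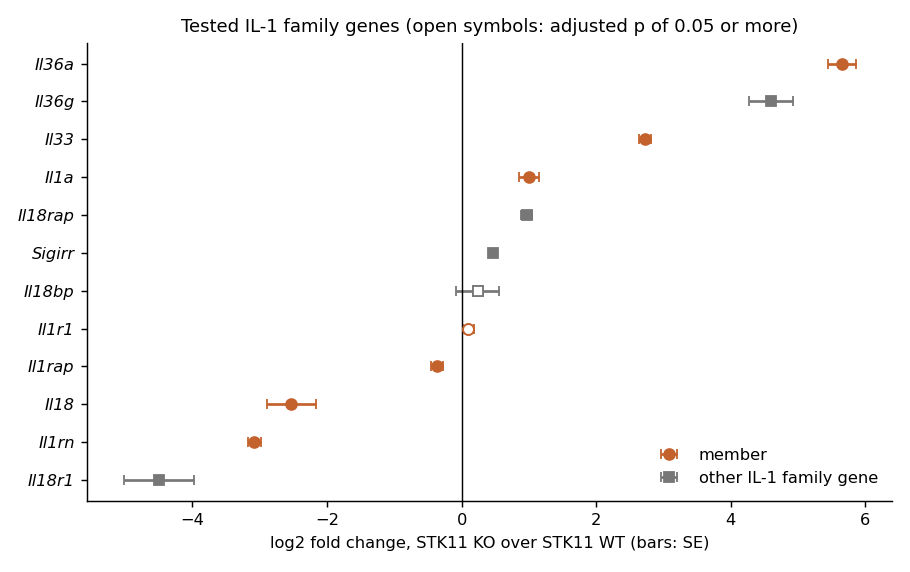
Log2 fold change of STK11 KO over STK11 WT, with SE, for the 12 IL-1 family genes with enough counts to be tested; orange circles are among the 9 genes described, grey squares are other family genes, and open symbols did not pass. Il36a, Il36g and Il33 lie farthest to the right and Il18r1, Il1rn and Il18 farthest to the left.

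Of 12 IL-1 family genes outside the 9, 9 had a count and 5 were tested, of which 3 rose (Il36g, Il18rap and Sigirr), 1 fell (Il18r1) and 1 did not pass (Il18bp), where 67.9% of all tested genes passed. The partner chains of the IL-18 receptor moved in opposite directions. Il18r1, its ligand-binding chain, had 22, 16, 37 and 21 counts in STK11 WT and 1, 0, 1 and 2 in STK11 KO (log2 fold change -4.50 ± 0.52, SE; edgeR adjusted p = 7.38e-08), having passed the filter only through STK11 WT. Il18rap, its accessory chain, rose from 15.5 ± 1.17 to 30.3 ± 1.37 CPM (SD, n = 4; log2 fold change 0.97 ± 0.08, SE; edgeR adjusted p = 1.22e-10). Sigirr, an inhibitory receptor of the family, rose 1.38-fold from 72.1 ± 2.45 to 99.6 ± 4.41 CPM (edgeR adjusted p = 6.63e-08). Il18bp, the gene of a soluble IL-18 decoy, stood at 0.691 ± 0.149 and 0.813 ± 0.302 CPM, with overlapping groups (edgeR adjusted p = 0.517). Il1rapl1 and Il1rapl2, both mainly neuronal, had 0 counts.

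Compared per kilobase of annotated exon, with all exons of a gene joined, the order of the 9 genes changed between the lines. A joined length can exceed that of a single transcript, so close places within a line depend on this choice of length. In STK11 WT the mean levels were 24.6 CPM per kb for Il33, 6.93 for Il1rn, 4.01 for Il1r1, 2.73 for Il1a, 1.78 for Il1rap, 1.23 for Il18, 0.243 for Il36a, 0.0369 for Il1b and 0.0178 for Il1rl1. Library ranges of neighbours in this order overlapped only for Il1b and Il1rl1. In STK11 KO the order was Il33 at 162 CPM per kb, Il36a at 12.5, Il1a at 5.50, Il1r1 at 4.27, Il1rap at 1.39, Il1rn at 0.827, Il18 at 0.207, Il1b at 0.019 and Il1rl1 at 0. Here the ranges of Il1a and Il1r1 overlapped, as did those of Il1b and Il1rl1. Il1rn thus moved from the second to the sixth place and Il36a from the seventh to the second.

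Many of these genes sit in clusters, and neighbours did not move together throughout. On chromosome 2, the family genes from Il36b to Il1rn span 198.3 kb (24043173 to 24241506). Il36g and Il36a, in the upstream part, rose, while Il1rn at the downstream end fell; of 4 other annotated genes within the span none had enough counts to be tested. On chromosome 1, the receptor genes from Il1r2 to Il18rap span 477.6 kb (40113239 to 40590865). There Il1r1 did not pass, Il1rl1 had its few counts in STK11 WT alone, the adjoining Il18r1 fell and the next gene, Il18rap, rose.

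**Figure D4:**
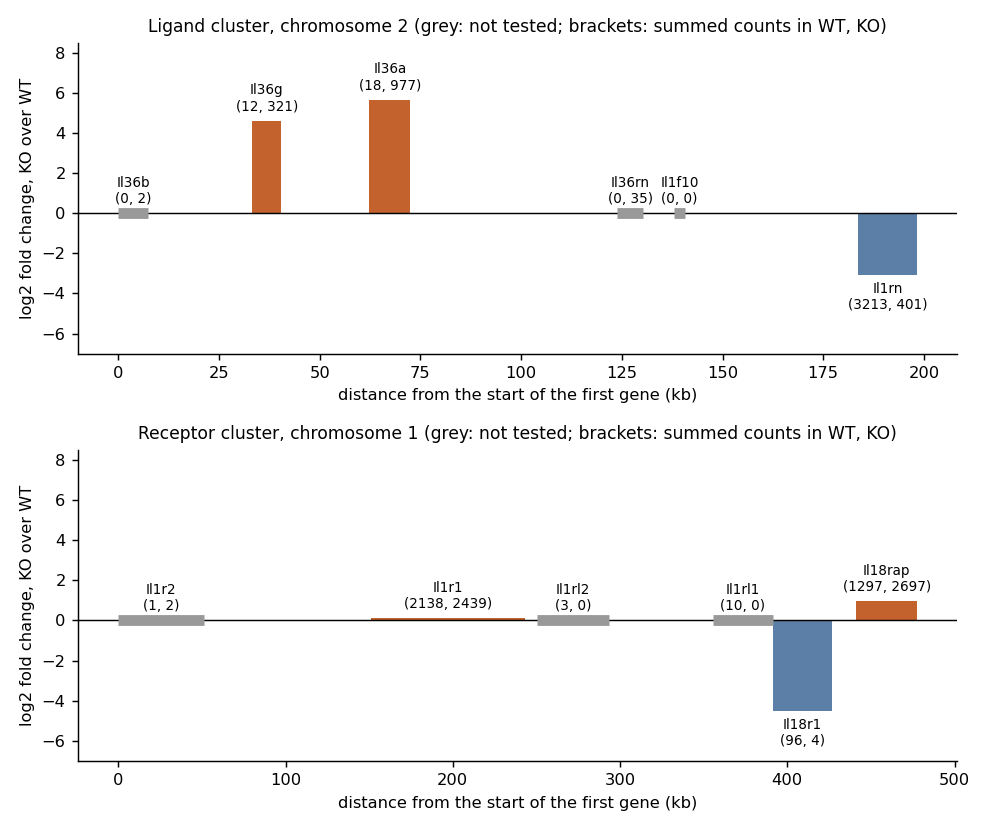
Log2 fold change of STK11 KO over STK11 WT along the ligand cluster of chromosome 2 (top) and the receptor cluster of chromosome 1 (bottom), against distance in kb from the start of the first gene. Each bar spans a gene, grey blocks are genes not tested, and brackets give summed counts in WT and KO; Il36g (12, 321) and Il36a (18, 977) rise while Il1rn (3213, 401) falls, and Il18r1 (96, 4) falls beside the rising Il18rap (1297, 2697).

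Genes that process or release these cytokines went both ways. The table holds 36 such genes and 22 could be tested: 6 rose, 10 fell and 6 missed the threshold, where 67.9% of all tested genes passed. Their log2 fold changes had a median of -0.14, against 0.01 for all tested genes. Nlrp3, an inflammasome sensor, rose from 0.177 ± 0.0761 to 3.72 ± 0.897 CPM (SD, n = 4), or 20.2-fold (edgeR adjusted p = 2.66e-11), with 15 counts over STK11 WT and 333 over STK11 KO; it passed the filter only through STK11 KO and so had to differ to be tested. The calpain small subunit gene Capns1, whose protease can cut the IL-1 alpha precursor, rose 1.71-fold (edgeR adjusted p = 1.27e-11). Of the catalytic subunit genes, Capn1 did not pass (log2 fold change -0.01, edgeR adjusted p = 0.933) and Capn2 fell slightly (-0.16, edgeR adjusted p = 0.0112). The calpain inhibitor gene Cast rose (log2 fold change 0.33, edgeR adjusted p = 5.62e-06). Gsdmd, the pore-forming gasdermin D, rose 1.28-fold (edgeR adjusted p = 1.68e-06). Gsdme, a further gasdermin, fell from 10.7 ± 1.42 to 1.13 ± 0.238 CPM (edgeR adjusted p = 4.03e-14). Naip5 and Nlrc4, which form a sensor of bacterial proteins, fell by 1.85 ± 0.18 and by 1.03 ± 0.12 (SE) on the log2 scale (edgeR adjusted p = 2.75e-09 and 8.73e-08); Naip5 has close paralogs with which it may share or lose reads. Pycard, the adaptor that links NLRP3 to caspase-1, had 0 counts in all 8 libraries, and Casp1 itself was low, at 0.768 ± 0.163 and 1.48 ± 0.418 CPM (log2 fold change 0.94 ± 0.28, SE; edgeR adjusted p = 0.00439). Pycard, Casp1, Capn1, Capn2 and Cast are named after their values were seen.

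Genes that carry the signal from the receptors changed mostly by small steps. Among 35 tested signalling genes 11 rose, 15 fell and 9 missed the threshold, against 67.9% of all tested genes that passed. Of those that passed, 3 changed at least 2-fold, against 16.4% of all tested genes, and the median log2 fold change of the list was -0.02. When library totals alone set the scale, 7 rose and 15 fell. The receptor adaptor gene Myd88, named after its values were seen, stood at 15.9 and 15.7 CPM on average and did not pass. Among those that rose were Map2k6, a kinase upstream of p38 (2.96-fold), Mapk8, which encodes JNK1 (1.64-fold), and Tab1, a partner of TAK1 (1.40-fold; largest edgeR adjusted p 8.29e-06). Peli2, an E3 ligase of the IRAK complex, fell from 9.15 ± 0.749 to 1.17 ± 0.169 CPM, and Ikbkg, the regulatory subunit NEMO, and Map2k3, another kinase upstream of p38, were 1.49-fold and 1.45-fold lower (edgeR adjusted p = 1.28e-09 and 2.75e-09).

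Of 36 tested genes that IL-1 can induce in epithelial or stromal cells, 27 rose and 9 fell, where 34.4% of all tested genes rose and 33.5% fell. A change of at least 2-fold was seen in 23 of the 36, against 16.4% of all tested genes, and the median log2 fold change was 0.81. Il6 and Mmp3 passed the filter only through STK11 KO, so they had to differ upward to be tested. Mmp3 had 3 counts in STK11 WT and 292 in STK11 KO. Il6, named like Mmp3 after its values were seen, had 0 counts in STK11 WT and 558 in STK11 KO, at least 176-fold more against a floor of 3 counts over the WT group, and the median was the same with Il6 at that bound. Il11, an IL-6 family cytokine, rose 37.5-fold, the collagenase gene Mmp13 5.32-fold and the monocyte chemokine gene Ccl2 4.69-fold (largest edgeR adjusted p 2.13e-18, for Ccl2). Csf1, the macrophage growth factor, fell 5.00-fold, the chemokine gene Cx3cl1 5.29-fold and Ccl20 4.63-fold (largest edgeR adjusted p 4.03e-17, for Ccl20). These genes respond to many other signals, the list was written with earlier results of these data known, and the part of IL-1 family cytokines in their change was not tested.

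**Figure D5:**
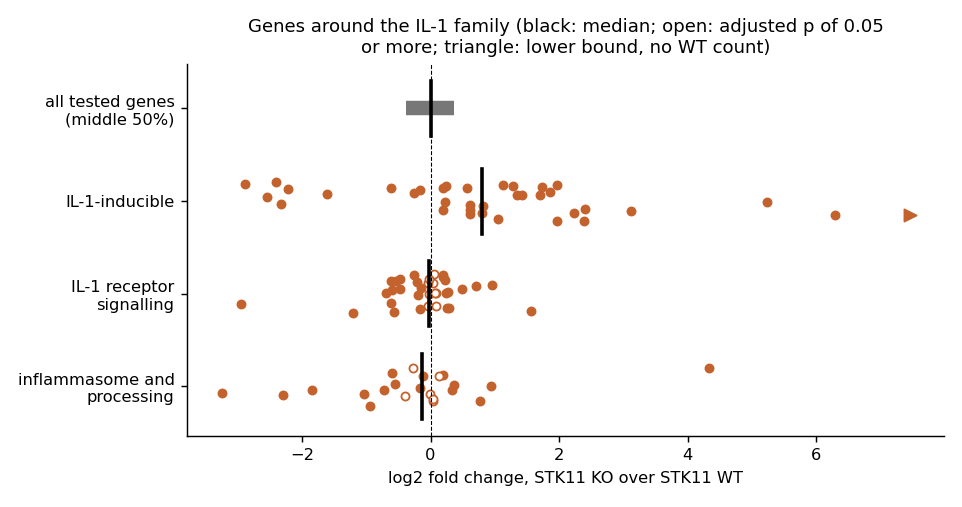
Log2 fold change of STK11 KO over STK11 WT for each tested gene of the 3 lists around the IL-1 family, with the list median as a black line, open circles for genes that did not pass and the middle 50% of all tested genes in grey. The IL-1-inducible genes have a median of 0.81, with Il6 drawn at its lower bound of 176-fold as a triangle, whereas the signalling and processing genes centre near 0. The lists were written with earlier results of these data known, and Il6 and Mmp3 had to rise to be tested. Irak2 is drawn in both the signalling and the IL-1-inducible list.

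By Pearson correlation of log2(CPM + 0.5) over the 8 libraries, a description without a test, the genes most like Il36a were Bnip3 (r = 0.9997), Car2 (0.9996) and Pcdh7 (0.9995). Since 1925 other tested genes had an r above 0.95 with Il36a, this likeness mostly restates the difference between the lines. For Il1rap, the only receptor gene among the 9 that passed, they were Pcolce2 (0.9808), Fgd4 (0.9781) and Lgr4 (0.9741), and 28 other tested genes had an r above 0.95. Likeness of pattern is not likeness of size. Mean levels in STK11 WT and in STK11 KO were 51.4 and 48.5 CPM for Pcolce2, 2.21 and 0.854 CPM for Fgd4 and 35.7 and 24.6 CPM for Lgr4.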

How the data were processed

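Per the labels' protocols, 100 ng of total RNA went into each library (Illumina Stranded mRNA Prep), and both ends were read over 51 bp. The authors deposited raw counts per gene, and a second table of log2 CPM values in voom's form, per the file headers and a check against the counts. Per the submitters' processing notes, tools included featureCounts 1.6.0 and STAR 2.7.9a, besides FastQC 0.11.8, limma and edgeR, with GRCm39 as the build. Strand setting and handling of multi-mapping reads are unknown (not given in the sources used here), so Il1a and Il1b may share reads with the antisense genes Gm14023 and Il1bos (36 and 79 counts in WT, 55 and 43 in KO), and Il1r1, Il18 and Il1rap with overlapping genes of at most 11 counts a group.

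Counts of all 8 libraries were fitted with edgeR 4.0.16 (TMM scaling, filterByExpr, glmQLFit with robust estimation, glmQLFTest, genotype only) in R 4.3.3, with Benjamini-Hochberg adjustment over the 13707 tested genes and a threshold of 0.05. The filter asked for about 0.47 CPM in at least 4 libraries. SE is the absolute log2 fold change over the square root of F. Bounds set a group without a count to 3 counts and take the counts of the other group as they are. Intervals are exact at 95%. Both cover counting error only, and the bounds leave out that of the counted group. Exon lengths came from GENCODE M21 (GRCm38) and serve for lengths alone. Alternatives were other scalings and filters, DESeq2 1.42.0, limma 3.58.1 (voom, and the deposited log2 values), a replicate block and leaving out each library. Of these steps, only the edgeR fit was tested on simulated counts, in which a small share of genes changed. In the data 67.9% of tested genes passed, so that simulation does not cover a change this wide. The 9 genes and all lists were chosen with earlier results of these data known. Named genes are the 9, Stk11, every other family gene with a count, the up to 3 risers and 3 fallers of smallest adjusted p in each list around the family, and the 3 genes most like Il36a and Il1rap. Marker genes, family genes without a count, Pycard, Casp1, Capn1, Capn2, Cast, Myd88, Irak2, Il6 and Mmp3 are named outside this rule, after their values were seen. The p-values set the difference between the groups against the spread between libraries of these lines. They do not cover the spread between independently edited lines.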

Additional observations from a re-analysis of the deposited data

Results flagged for a closer look

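In 94 groups of 4 libraries, 3 had a highest or lowest value whose gap to its neighbour took more of the range than Dixon's 95% critical value. Chance gives about 1 in 20 for normally distributed values. That rate does not hold for groups at or near 0 counts, such as those of Il36b and Il1r2 below, where a lone counted library is always flagged. Il1rn in KO replicate 3 was 3.41 CPM, against 4.86 to 5.08 CPM in the other KO libraries. Il36b was at 0.0776 CPM (2 counts) in KO replicate 3 and at 0 in the others. Il1r2 was at 0.0463 CPM (1 count) in WT replicate 2 and at 0 in the other WT libraries.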

How the results depend on the processing

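Of the 9 genes, 6 passed in the reported fit, 6 in every fit that left out 1 library, and 5 to 7 under the other 9 settings: 5 where a gene needed 1 CPM in 4 or more libraries, which leaves Il18 untested, and 7 without a filter, where Il1rl1 is added. Over unique symbols, 9308 of 13703 tested genes passed in the reported fit. This was 8717 of 12386 where 1 CPM was needed and 10156 of 27110 without a filter. Over all settings run the log2 fold change lay between 2.63 and 2.80 for Il33, 5.53 and 5.72 for Il36a, 0.88 and 1.15 for Il1a, -3.16 and -2.95 for Il1rn, -2.78 and -2.36 for Il18, -0.44 and -0.28 for Il1rap and 0.00 and 0.15 for Il1r1, each on its side of the threshold. The number of ligand genes outside the 9 that passed was 1, and 2 without a filter, with DESeq2 and with limma on the deposited values, since Il36rn is then tested. The antagonist ratio differed by -4.06 on the log2 scale, by -4.07 against Il1a alone and by -4.12 to -3.96 without 1 library; against Il1b alone it cannot be computed, as 4 libraries have no Il1b count. No pairing of the libraries by the labels' replicate numbers was detected. Correlations of deviations were -0.0985 to 0.0356 for same-numbered libraries and -0.0913 to 0.102 for the others. A pairing that touches few genes would not show in these values. With the replicate block 6 of the 9 genes passed and 9106 of all tested genes against 9308, counted over unique symbols. Scaling by library size alone moved the median of all genes from 0.01 to -0.07. Depth limits Il1b, Il1rl1, Il1rl2, Il1r2 and Il36b, which have 10 counts or fewer in any group.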
